A study of Mus musculus with 12 samples.

Results

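The BCL2 family and *Cflar* are described here as a set of 10 genes, chosen by name from the 55487 gene models of a table of normalized counts: *Bcl2*, *Bcl2l1*, *Bcl2a1a*, *Bcl2a1b*, *Bcl2a1d*, *Mcl1*, *Bcl2l11*, *Bbc3*, *Pmaip1* and *Cflar*. These genes were picked with earlier results of these data known. They were measured by RNA-seq of poly(A) RNA from bone-marrow-derived macrophages (BMDMs), which are grown from bone marrow of C57BL/6 mice aged 8 to 12 weeks in medium conditioned by L929 cells. The 4 groups, with 3 libraries each, were Rasgef1b cKO macrophages that received lipopolysaccharide (LPS, 100 ng/ml over 4 h), Rasgef1b cKO macrophages left untreated, wild-type (WT) macrophages given the same LPS treatment and WT macrophages left untreated. LPS is a component of the Gram-negative outer membrane that macrophages sense through Toll-like receptor 4. The cKO mice lack exons 7 and 8 of *Rasgef1b*, a guanine nucleotide exchange factor gene, in every tissue, since the floxed allele was recombined by a Cre driven by the ubiquitous CMV promoter. The methods name an animal facility as the source of the WT mice and do not state that they were littermates of the cKO mice, so that colony and genotype cannot be told apart. The question was how the messages of these genes changed with LPS and whether they differed between the genotypes.

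BCL2 family proteins decide whether the outer mitochondrial membrane is opened in apoptosis. The effectors BAX and BAK open it, the anti-apoptotic members BCL2, BCL-XL (*Bcl2l1*), MCL1 and A1 (*Bcl2a1*) hold them in check, and the BH3-only proteins BIM (*Bcl2l11*), PUMA (*Bbc3*) and NOXA (*Pmaip1*) bind the anti-apoptotic members and free the effectors. *Cflar* encodes c-FLIP, which resembles caspase-8 but lacks its protease activity and limits the activation of caspase-8 at death receptors. A1 and c-FLIP are known targets of NF-κB, the factor that Toll-like receptors activate in macrophages, and MCL1 is a short-lived protein. RNA-seq measures the messages of these genes, not the proteins, and in bulk samples fewer cells that express a gene and less RNA per cell cannot be told apart.

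The libraries held 19316691 to 24977356 reads in genes. *Rasgef1b*, with reads over the whole gene and not only the deleted exons, averaged 3862 normalized counts in cKO and 12084 in WT macrophages after LPS, and 609 in untreated cKO and 2072 in untreated WT macrophages. The 8 macrophage markers were expressed in every group, with summed normalized counts of 215104 to 392543 per library. Sums of the marker lists of neutrophils, B and T cells, dendritic cells, mast cells and fibroblasts lay between 0 and 502 per library, and those that moved with LPS are given beside its counts of calls. The untreated cKO library 2 stood apart, since its counts differed from those of the other libraries of its group by a chi-square of 125 to 140 for each degree of freedom. Other pairs of replicates gave 4.50 to 24.1, so that no library was a copy of another. No call of the 10 genes changed without this library, and the directions that changed are given with the comparison of untreated cells.

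A1 is encoded in the mouse by several near-identical genes. On GRCm38 the *Bcl2a1d* gene (ENSMUSG00000099974) lies on the reverse strand of chromosome 9 at 88723285 to 88731914, *Bcl2a1a* (ENSMUSG00000102037) on the forward strand at 88956900 to 88962419 and *Bcl2a1b* (ENSMUSG00000089929) on the forward strand at 89199209 to 89207827, within 484.5 kb of each other. Their transcripts of 817 to 863 nt are identical at 98.2% to 99.1% of the aligned bases. The coding sequences of 516 nt differ among the 3 genes at 12 positions, of which 6 lie in the first 60 bases. These bases are printed to show how little sequence tells the reads of the 3 genes apart, with the positions that differ in capitals.
Bcl2a1a (chr9:88957051-88957110, forward strand): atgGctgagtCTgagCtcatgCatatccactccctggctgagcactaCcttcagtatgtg
Bcl2a1b (chr9:89199360-89199419, forward strand): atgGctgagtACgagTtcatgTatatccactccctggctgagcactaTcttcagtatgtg
Bcl2a1d (chr9:88731660-88731719, reverse strand): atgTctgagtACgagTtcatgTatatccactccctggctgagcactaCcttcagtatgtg

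Reads were 150 bases long, while the longest run that a pair of these transcripts shares is 217 to 314 bases. Of the windows of 150 bases in the *Bcl2a1a* transcript, 71.8% occur in no other A1 transcript, against 85.8% for *Bcl2a1b* and 69.7% for *Bcl2a1d*. The counts of the single genes are therefore uncertain, and their sum is given as well. The exons of *Bcl2a1b* also overlap those of the gene model *Gm29094*, and those of *Bcl2* overlap those of *D630008O14Rik* on the other strand.

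The A1 genes and *Cflar* had the highest fold changes after LPS among the 10 genes. *Bcl2a1a* and *Bcl2a1d* led in both genotypes, while *Bcl2a1b* and *Cflar* were close in cKO macrophages, at log2 fold changes of 4.09 and 4.07. Their order turned with a pseudocount of 5 (4.04 and 4.06), without the untreated cKO library 1 (3.99 and 4.12) and without the LPS-treated cKO library 3 (4.00 and 4.09). *Bcl2a1d* was at 4874, 3981 and 4655 normalized counts in the 3 LPS-treated cKO libraries, against 57.1, 60.7 and 50.1 in the untreated cKO libraries. In WT macrophages it was at 4699, 4311 and 4593 with LPS, against 54.7, 41.6 and 33.5 without. Every LPS-treated library lay far above every untreated one, and the ranges of the genotypes after LPS overlapped. The log2 fold change, computed with limma on the normalized count plus 1, was 6.30 in cKO (SE 0.10, adjusted p = 9.64e-10) and 6.71 in WT macrophages (SE 0.15, adjusted p = 7.9e-10). A gene is called changed here when its adjusted p (Benjamini-Hochberg, over all genes tested) is under 0.05 and its log2 fold change is 1 or more in either direction.

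*Bcl2a1a* was nearly silent without LPS, where it rested on 8 reads over the 3 cKO libraries and 17 over the 3 WT libraries. It was at 590.3, 601.5 and 672 normalized counts in LPS-treated cKO macrophages, against 2.82, 2.57 and 0.716 in untreated ones. The WT libraries were at 705, 544.5 and 615 with LPS, against 3.46, 2.64 and 6.37 without. The log2 fold changes were 7.76 in cKO (SE 0.31, adjusted p = 7.46e-08) and 6.97 in WT macrophages (SE 0.26, adjusted p = 1.67e-08). With so few reads in untreated cells the added count of 1 lowers these values. Without the added count, the ratio of the summed reads, scaled for what a read was worth in each library, was 309 in cKO (95% counting interval 156 to 716) and 154 in WT macrophages (95.8 to 265), where the exact intervals cover counting error only.

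*Bcl2a1b*, the A1 gene with the most reads in untreated cells, had the smallest of the A1 changes. It was at 1490.2, 1593 and 1878 normalized counts in LPS-treated cKO macrophages, against 83.2, 103 and 102 in untreated ones. WT macrophages had 1734, 1557 and 1618 with LPS, against 97.6, 70.6 and 59.7 without. The log2 fold change was 4.09 in cKO (SE 0.12, adjusted p = 1.39e-08) and 4.44 in WT macrophages (SE 0.16, adjusted p = 1.16e-08), with no overlap between treated and untreated libraries in either genotype.

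The makeup of the A1 messages differed between libraries with and without LPS, without overlap. *Bcl2a1d* gave 64.5% to 70.1% of the summed normalized counts of the 3 genes in LPS-treated cKO libraries, against 32.7% to 39.9% in untreated ones, and 65.8% to 67.3% in LPS-treated WT libraries, against 33.6% to 36.2% in untreated ones. *Bcl2a1b* held 21.4% to 26.1% of the sum in LPS-treated cKO libraries, against 58.1% to 66.8% in untreated ones. The difference in the *Bcl2a1d* share was 30.0 percentage points in cKO and 31.8 points in WT macrophages, each with p = 0.1 in a two-sided exact permutation test (n = 3 and 3), the smallest p that 3 against 3 libraries allow. Summed over the 3 genes, A1 averaged 6779 ± 537 normalized counts in LPS-treated and 154 ± 11.4 in untreated cKO macrophages, and 6792 ± 364 in LPS-treated and 123.4 ± 29.0 in untreated WT macrophages (SD, n = 3 each). The log2 fold change of the sum was 5.45 in cKO (SE 0.08) and 5.80 in WT macrophages (SE 0.14). The more distant paralog *Bcl2a1c*, on chromosome 9 at 114330135 to 114330578, had 31 reads in LPS-treated and 1 in untreated cKO macrophages, and 24 reads in LPS-treated and 2 in untreated WT macrophages. Scaled in the same way, the ratio was 53.1 in cKO (95% counting interval 8.85 to 2164) and 23.4 in WT macrophages (5.81 to 204).

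The sequence before the start of the A1 genes is also near-identical. Of the 10 genes, 9 matched the RefSeq promoter table for GRCm38.p6, which holds 250 bases before and 50 after each start. The letters GAGGAA are the core of the site bound by PU.1, the ETS factor that directs myeloid differentiation, and occur on either strand in 28.3% of the 32851 windows of the table. The 10 letters AGAGGAAGTG, read around this core before the start of *Bcl2a1d*, were searched on both strands of the same windows. Since the letters were read from an A1 window, their presence there is no finding. They occur in 0.426% of the windows, in the windows of all 4 A1 paralogs and in none of the windows of the other genes of the set. The stretch around them is shown for the 3 A1 genes, since these genes were among those with the highest fold changes, with the motif in capitals.
Bcl2a1a (chr9:88956780-88956849, forward strand): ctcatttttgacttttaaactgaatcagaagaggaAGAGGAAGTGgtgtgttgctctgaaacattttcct
Bcl2a1b (chr9:89199089-89199158, forward strand): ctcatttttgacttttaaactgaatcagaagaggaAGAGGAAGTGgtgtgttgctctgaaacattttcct
Bcl2a1d (chr9:88731915-88731984, reverse strand): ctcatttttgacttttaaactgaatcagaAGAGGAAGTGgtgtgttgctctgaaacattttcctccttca

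The stretches of *Bcl2a1a* and *Bcl2a1b* are the same in all 70 bases, and that of *Bcl2a1d* aligns to them with 64 identical bases and 0 mismatches beside gaps. A search of the same windows for the NF-κB consensus, on both strands, found it in 8.46% of all windows. It was in 1 of 3 windows of *Bcl2l1* and 1 of 3 of *Bbc3*, and in none of the windows of the A1 genes, *Cflar*, *Mcl1*, *Bcl2* or *Bcl2l11*. A match of letters is a description of these windows only.

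*Mcl1*, on chromosome 3 at 95658788 to 95663176, was the most abundant of the anti-apoptotic messages in normalized counts. It was at 18189, 18880 and 21801 normalized counts in LPS-treated cKO macrophages, against 13597, 12171 and 13295 in untreated ones. In WT macrophages it was at 17404, 17649 and 20904 with LPS, against 15106, 14019 and 15550 without. All treated libraries lay above all untreated libraries of their genotype, by less than 2-fold. This gave a log2 fold change of 0.59 in cKO (SE 0.09, adjusted p = 0.000344) and 0.32 in WT macrophages (SE 0.08, adjusted p = 0.0054), below the fold threshold of a call, and it was -0.10 and -0.40 when counts were scaled to the library total. The value of -0.40 in WT macrophages also had an adjusted p under 0.05, so the direction depends on the scaling.

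*Bcl2l1*, on chromosome 2 at 152780668 to 152831728, changed little in normalized counts. It was at 2572, 2971 and 2462 normalized counts in LPS-treated cKO macrophages, against 3016, 3176 and 2889 in untreated ones, where the ranges overlap. The WT libraries were at 2559, 2596 and 2427 with LPS, against 3165, 3231 and 2683 without, with no overlap. The log2 fold change was -0.19 in cKO (SE 0.08, adjusted p = 0.0658) and -0.26 in WT macrophages (SE 0.08, adjusted p = 0.0127), and 0.10 and 0.04 under upper quartile scaling. When counts were scaled to the library total it was -0.87 in cKO (adjusted p = 1.67e-05) and -0.98 in WT macrophages (adjusted p = 1.5e-06). The size of the change thus depends on the scaling. With the replicate number as a block the adjusted p in cKO macrophages was 0.0111, and with no block it was 0.00902 without the LPS-treated cKO library 2, the highest of its group, and up to 0.221 without any other one.

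*Bcl2*, on the reverse strand of chromosome 1 at 106538178 to 106714274, fell. It was at 44.8, 44.5 and 34.0 normalized counts in LPS-treated cKO macrophages, against 249.7, 297 and 256 in untreated ones. WT macrophages had 45.0, 42.3 and 69.6 with LPS, against 289.9, 277 and 208 without. The highest treated library, at 69.6, lay far below the lowest untreated one, at 208. This gave a log2 fold change of -2.68 in cKO (SE 0.15, adjusted p = 6.73e-07) and -2.30 in WT macrophages (SE 0.21, adjusted p = 7.6e-06), the lowest values of the 10 genes.

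Levels of different genes were set side by side per kb of exon, counted over the exons of all transcripts of a gene. By this measure the shares of the genes in the anti-apoptotic messages differed with LPS, while *Mcl1* had the highest mean level in every group. A gene with several transcripts, such as *Bcl2l1* with 4586 nt over 9, may be divided by a longer length than its expressed form has. Each A1 gene has 1 transcript, of 817 to 863 nt, so the shares and the sum depend on this choice. The A1 genes together held 54.2% to 58.2% of the summed normalized count per kb of *Mcl1*, *Bcl2l1*, *Bcl2* and the 3 A1 genes in LPS-treated cKO libraries, against 3.55% to 4.44% in untreated ones. In WT macrophages their share was 54.8% to 59.8% with LPS, against 2.27% to 3.51% without. The difference was 51.9 percentage points in cKO and 54.3 points in WT macrophages, and each gave p = 0.1 in a two-sided exact permutation test (n = 3 and 3, adjusted p = 0.1 over the 4 tests of shares). *Mcl1* held 37.8% to 41.3% in LPS-treated cKO libraries, against 79.4% to 82.3% in untreated ones, although its own count was not lower, and *Bcl2* held 0.0241% to 0.036% with LPS, against 0.564% to 0.723% without. The sum itself was 14329 ± 1003 normalized counts per kb in LPS-treated and 4684 ± 180.0 in untreated cKO macrophages, and 14029.7 ± 705 in LPS-treated and 5193 ± 191 in untreated WT macrophages (SD, n = 3 each).

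**Figure D1:**
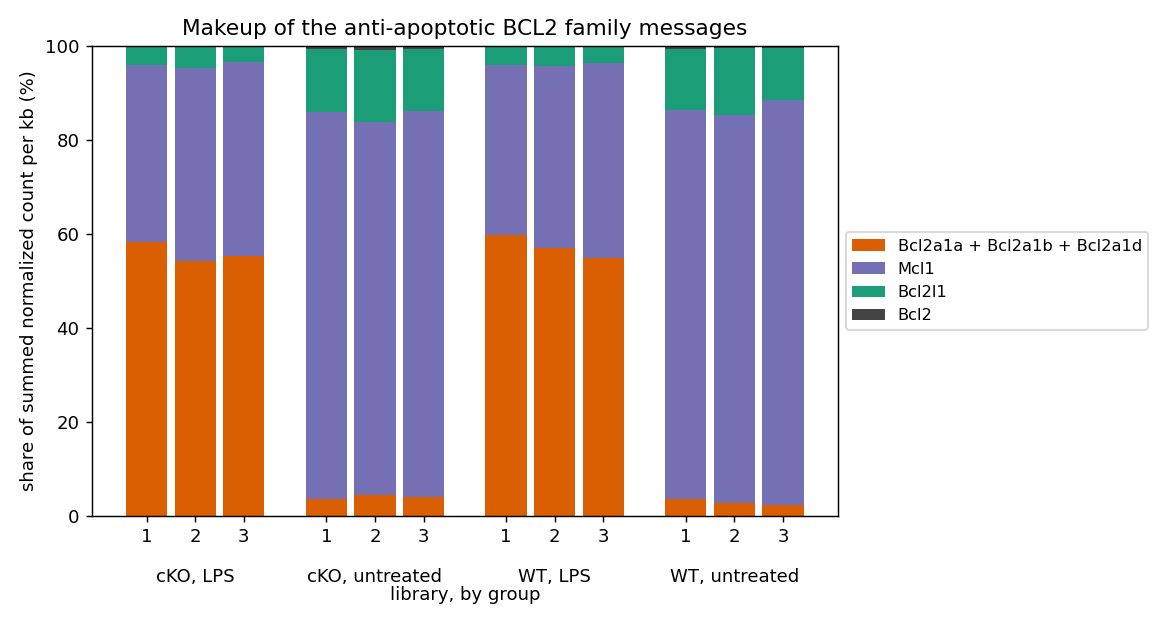
Share of each anti-apoptotic message (y axis, percent of their summed normalized count per kb of exon) in each library (x axis, 3 per group). The orange part, the 3 A1 genes, takes 54.2% to 59.8% of the LPS-treated bars and 2.27% to 4.44% of the untreated ones.

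Over all 10 genes the order of levels per kb followed the treatment. This order depends on the same exon lengths, such as 12669 nt over 13 transcripts for *Cflar*. In LPS-treated cKO macrophages it ran from *Mcl1* (5741 ± 561 normalized counts per kb) through *Bcl2a1d* (5219 ± 539), *Cflar* (2139 ± 72.2), *Bcl2a1b* (2024 ± 246), *Bcl2a1a* (759 ± 54.4), *Bcl2l1* (581.8 ± 58.4), *Bcl2l11* (319.7 ± 46.1), *Bbc3* (269 ± 35.1) and *Pmaip1* (26.7 ± 4.61) to *Bcl2* (4.49 ± 0.667). The ranges of *Mcl1* and *Bcl2a1d*, of *Cflar* and *Bcl2a1b*, and of *Bcl2l11* and *Bbc3* overlapped. In LPS-treated WT macrophages the order was the same but for *Bbc3* (280.5 ± 21.6), which lay above *Bcl2l11* (209 ± 23.9) without overlap. In untreated cells *Mcl1* was first (3809.5 ± 220.0 in cKO and 4357 ± 230.4 in WT macrophages), *Bcl2l1* second (660.0 ± 31.4 in cKO and 659.9 ± 65.2 in WT macrophages) and *Bcl2a1a* last (2.48 ± 1.40 in cKO and 5.08 ± 2.39 in WT macrophages).

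The 3 BH3-only genes did not move together. *Pmaip1*, on chromosome 18, whose protein NOXA binds MCL1 and A1 in particular, fell. It was at 71.4, 86.3 and 61.3 normalized counts in LPS-treated cKO macrophages, against 293, 202 and 229 in untreated ones. In WT macrophages it was at 50.7, 69.6 and 77.9 with LPS, against 227, 207 and 295.5 without. The groups did not overlap, and the log2 fold change was -1.71 in cKO (SE 0.18, adjusted p = 3.29e-05) and -1.87 in WT macrophages (SE 0.19, adjusted p = 1.76e-05).

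*Bcl2l11*, on chromosome 2 at 128126038 to 128162547, encodes BIM, which binds every anti-apoptotic member. It was at 2929.5, 2190.1 and 2581 normalized counts in LPS-treated cKO macrophages, against 1878, 1426 and 1609 in untreated ones. The WT libraries were at 1593, 1543 and 1897 with LPS, against 1449, 1231 and 1408 without. The treated libraries lay above the untreated ones in both genotypes, by a small margin in WT macrophages. The log2 fold change was 0.65 in cKO (SE 0.13, adjusted p = 0.00155) and 0.30 in WT macrophages (SE 0.09, adjusted p = 0.0163), below the fold threshold, and it was -0.04 and -0.43 when counts were scaled to the library total.

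*Bbc3*, on chromosome 7 at 16308393 to 16318205, encodes PUMA, a p53 target. It was at 654, 509.9 and 549.9 normalized counts in LPS-treated cKO macrophages, against 419.7, 339 and 419.6 in untreated ones. WT macrophages had 577, 562 and 648 with LPS, against 409.7, 439 and 566 without, so that the WT groups overlapped. This gave a log2 fold change of 0.54 in cKO (SE 0.12, adjusted p = 0.00353) and 0.35 in WT macrophages (SE 0.12, adjusted p = 0.0265), again below the fold threshold, and it was -0.15 and -0.38 when counts were scaled to the library total.

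*Cflar*, on chromosome 1 at 58711508 to 58758884, was the gene with the most reads after LPS and the least spread. It was at 28128, 26801 and 26373 normalized counts in LPS-treated cKO macrophages, against 1731, 1534 and 1585 in untreated ones. In WT macrophages it was at 30428, 29472 and 30899 with LPS, against 1684, 1714 and 1812 without. The log2 fold change was 4.07 in cKO (SE 0.07, adjusted p = 9.64e-10) and 4.12 in WT macrophages (SE 0.05, adjusted p = 5.04e-11). The coefficient of variation within groups had a median of 3.62% for *Cflar*, against medians of 7.32% to 30.1% for the other 9 genes. Counts per gene do not tell apart the long and short forms of c-FLIP, nor the splice forms of *Bcl2l11*, *Bcl2l1* and *Mcl1*.

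**Figure D2:**
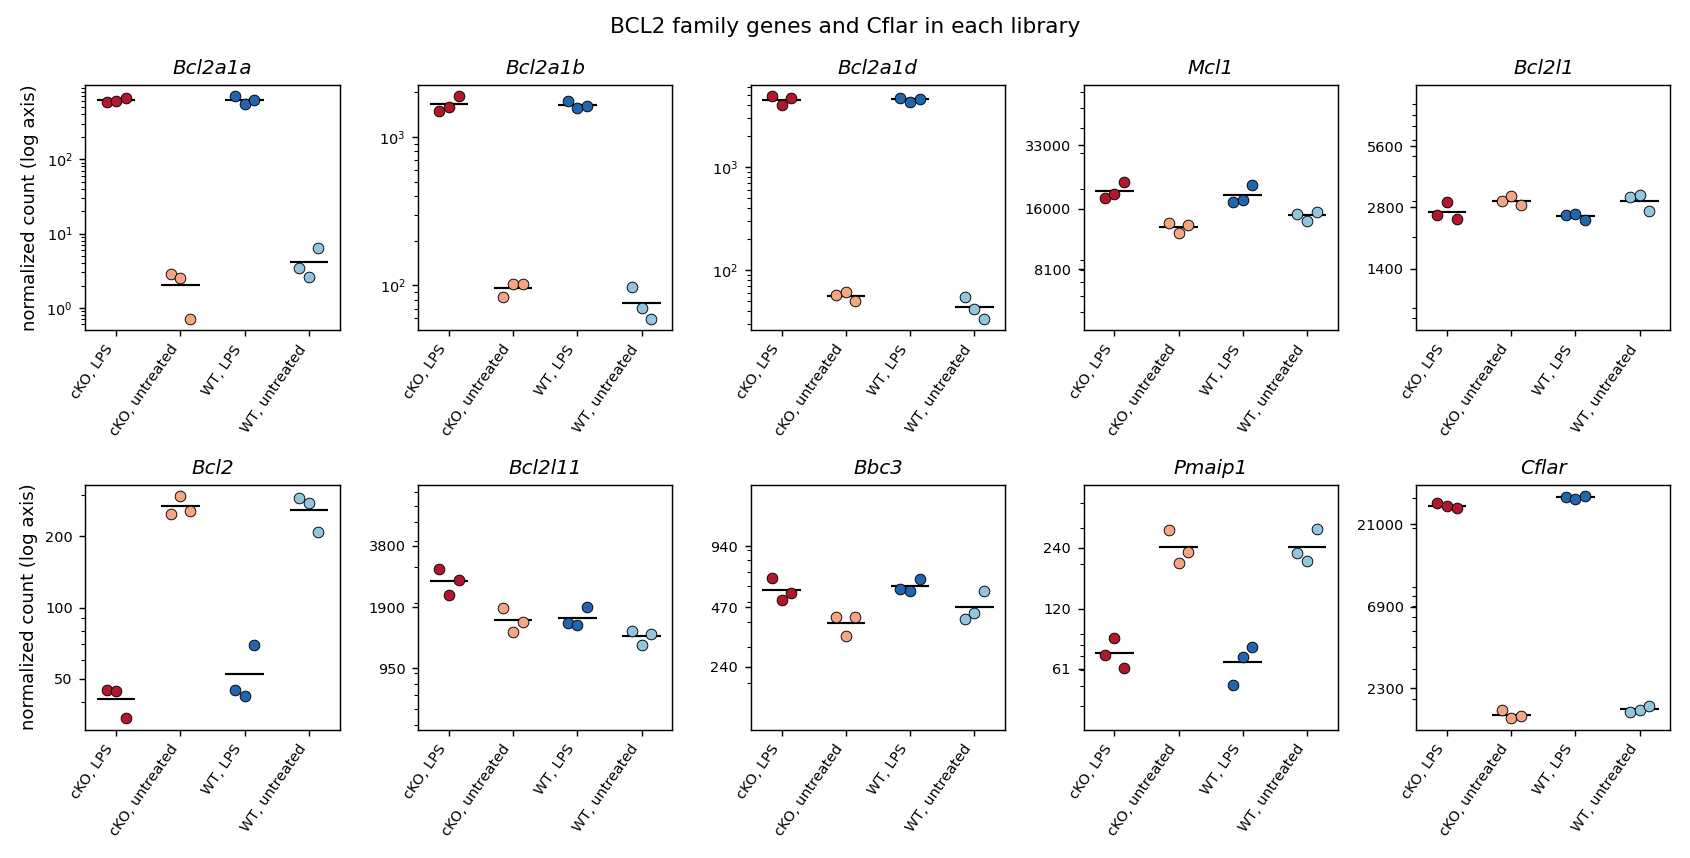
Normalized count (y axis, log scale, with its own range for each gene) of the 10 genes in each library (points), by group (x axis), with the mean of 3 libraries as a line. LPS-treated and untreated libraries stand far apart for the A1 genes and *Cflar*, from 26373 to 30899 with LPS against 1534 to 1812 without for *Cflar*, while *Bcl2l1* stays between 2427 and 3231.

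Of the 10 genes, 6 were called in LPS-treated against untreated cKO macrophages, 4 of them higher and 2 lower, where 33.8% of the 12732 genes tested were called. In WT macrophages it was also 6, 4 higher and 2 lower, where 33.9% of 12656 genes were called. These were *Bcl2a1a*, *Bcl2a1b*, *Bcl2a1d* and *Cflar*, which rose, and *Bcl2* and *Pmaip1*, which fell. The edgeR quasi-likelihood test and DESeq2 on the recovered reads called 6 each in both genotypes. At an adjusted p under 0.05 alone, 9 of 10 passed in cKO macrophages, where 72.1% of all genes did, and 10 of 10 in WT macrophages, where 73.2% did. Of these, 3 rested on single WT libraries. *Mcl1* passed in WT macrophages as lower when counts were scaled to the library total. *Bcl2l11* and *Bbc3* were also lower in WT macrophages with that scaling, at -0.43 and -0.38. Each of them passed in 10 of the 11 other settings of the fit. Without the untreated WT library 2 the adjusted p was 0.0598 for *Bcl2l1*, 0.0696 for *Bcl2l11* and 0.0881 for *Bbc3*, and that of *Bbc3* was 0.0929 without the untreated WT library 1 and 0.0787 without the LPS-treated WT library 3. With the replicate number as a block it was 10 in both. Treated and untreated libraries did not overlap for 9 of the 10 genes in cKO, against 76.5% of all genes, and for 9 in WT macrophages, against 76.9%. The median log2 fold change of the 10 genes was 0.62 in cKO and 0.33 in WT macrophages, against -0.01 and -0.02 over all genes tested. The 5 dendritic cell markers also summed higher with LPS, at 92.6 to 128 in LPS-treated and 10.3 to 23.3 in untreated cKO macrophages, and at 77.4 to 98.8 in LPS-treated and 12.5 to 19.8 in untreated WT macrophages. The 6 fibroblast markers were at 61.5 to 105 in LPS-treated and 22.2 to 38.8 in untreated cKO macrophages, and at 39.4 to 80.7 in LPS-treated and 11.2 to 29.1 in untreated WT macrophages. *Xcr1* and *Clec9a* of the first list and *Pdgfrb* of the second were called higher in both genotypes, and the part of these markers in the result was not tested.

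The scaling of the libraries sets how small changes read. A read was worth 1.21 to 1.41 normalized counts in LPS-treated libraries and 0.660 to 0.855 in untreated ones. Scaling to the library total instead moved the median log2 fold change of all genes by -0.68 in cKO and -0.72 in WT macrophages, and upper quartile scaling moved it by 0.28 and 0.30. The fold changes of the 6 called genes were larger than these shifts and kept their direction under both scalings. The split of calls over all genes was 2201 higher and 2108 lower in cKO and 2158 and 2136 in WT macrophages, against 1390 and 4708 in cKO and 1343 and 4886 in WT macrophages with the library total, and 2812 and 1533 in cKO and 2803 and 1503 in WT macrophages with the upper quartile. Relative to the median of all genes, *Mcl1*, *Bcl2l11* and *Bbc3* lay above it and *Bcl2l1* below it in both genotypes.

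**Figure D3:**
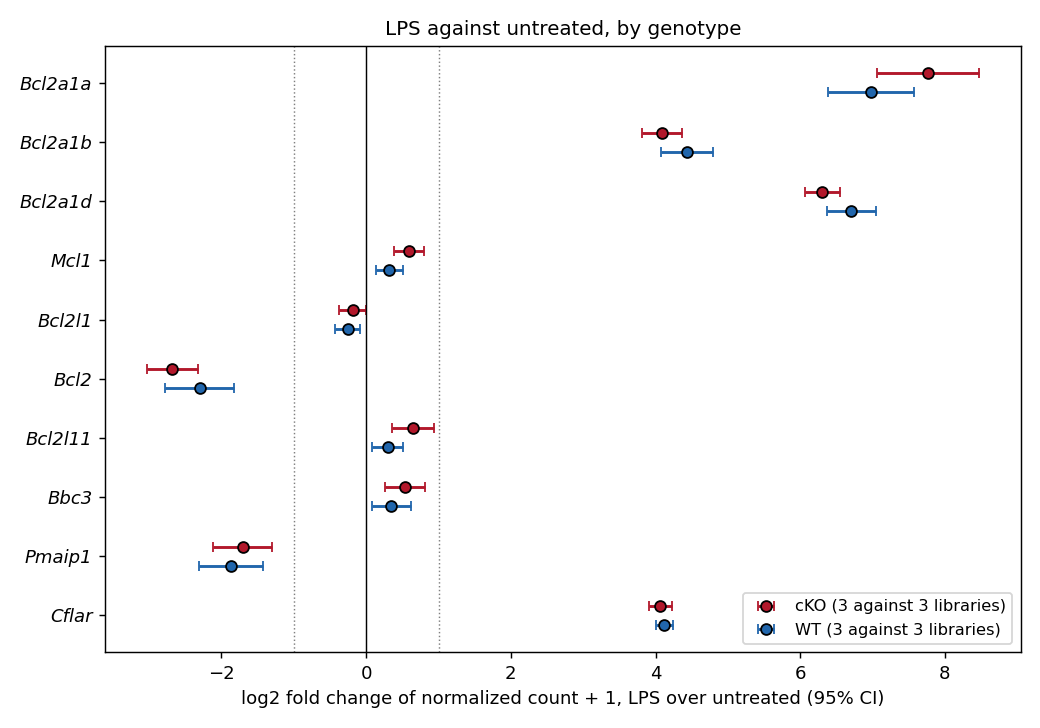
Log2 fold change of LPS over untreated (x axis, on the normalized count plus 1, with 95% confidence intervals) for the 10 genes (y axis) in cKO (red) and WT macrophages (blue), 3 against 3 libraries each. Dotted lines mark the fold threshold of 1. The A1 genes and *Cflar* lie at 4.07 to 7.76, *Bcl2* and *Pmaip1* at -2.68 to -1.71 and the other genes between -0.26 and 0.65.

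Differences between the genotypes were small beside those with LPS, at log2 fold changes of -0.32 to 0.61 after LPS and -0.26 to 0.39 in untreated cells. The comparisons of cKO with WT macrophages use the same libraries as the comparisons with LPS above. After LPS, 0 of the 10 genes were called by limma in cKO against WT macrophages, where 0.232% of all genes were called. The edgeR test and DESeq2 called 0 each as well, and 2 genes had an unadjusted p under 0.05 with limma. At an adjusted p under 0.05 alone 1 gene passed, where 0.816% of all genes did.

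This gene was *Bcl2l11*. Its 3 LPS-treated cKO libraries, at 2190.1 to 2929.5 normalized counts, lay above the 3 LPS-treated WT libraries, at 1543 to 1897. The mean was 2567 ± 369.9 in cKO and 1678 ± 192 in WT macrophages (SD, n = 3 each), which is 1.53-fold higher, with a log2 fold change of 0.61 (SE 0.11, 95% confidence interval 0.36 to 0.86, adjusted p = 0.0391). The groups of 16.1% of all genes did not overlap in this comparison. Over 11 other settings of the fit the adjusted p was 2.86e-05 to 0.256 and under 0.05 in 9, while the log2 fold change stayed at 0.60 to 0.64. Among these 9 is the block by replicate number, which here joins cKO and WT libraries that are not pairs. The adjusted p was 0.0527 with upper quartile scaling and 0.256 with a variance without a trend. Without WT library 1, WT library 2 or cKO library 3 the adjusted p was 0.184, 0.188 and 0.179, and in the other 3 leave-outs it was 0.0178 to 0.0453. In the same libraries the summed macrophage markers were at 273170 to 339137 in cKO and 339103 to 392543 in WT macrophages, and those of dendritic cells at 92.6 to 128 in cKO and 77.4 to 98.8 in WT macrophages. The 8 B and T cell markers summed to 94.3 to 106 in cKO and 157 to 180 in WT macrophages, without overlap, with *Cd3d* at 0 reads in both groups. The 1 gene of that list that was tested, *Cd4*, had a log2 fold change of -0.78 (adjusted p = 0.0335). The part of these markers in the result was not tested.

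In untreated macrophages *Bcl2l11* averaged 1638 ± 227 normalized counts in cKO and 1363 ± 116 in WT macrophages, with overlapping libraries and a log2 fold change of 0.26 (SE 0.10, 95% confidence interval 0.02 to 0.50, adjusted p = 0.409). Whether the genotypes differed in their response to LPS was tested as an interaction over the 12 libraries. For *Bcl2l11* it was 0.35 on the log2 scale (95% confidence interval -0.02 to 0.72, adjusted p = 0.999 with limma). The higher level in cKO macrophages was thus not shown to depend on LPS.

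The noncoding gene *Morrbid* lies 15.8 kb beyond the end of *Bcl2l11* on the other strand, and its RNA is known in mouse short-lived myeloid cells to repress *Bcl2l11*. It was at 85.9, 115 and 84.4 normalized counts in LPS-treated cKO macrophages, against 38.8, 34.2 and 27.9 in untreated ones. The WT libraries were at 78.8, 90.1 and 80.7 with LPS, against 25.6, 15.2 and 19.1 without. It rose with LPS in both genotypes, with a log2 fold change of 1.47 in cKO (SE 0.20, adjusted p = 0.000178) and 2.03 in WT macrophages (SE 0.22, adjusted p = 2.73e-05). Between cKO and WT macrophages the log2 fold change was 0.18 with LPS (adjusted p = 0.793) and 0.74 without (adjusted p = 0.288, no overlap of the libraries). Its exons overlap those of *Gm14009* on the other strand and of *Gm14012*.

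*Cflar* after LPS and *Mcl1* in untreated cells also had groups that did not overlap. The groups of 16.1% of all genes did not overlap after LPS, and those of 16.4% in untreated cells. LPS-treated cKO libraries had 26373 to 28128 normalized counts of *Cflar*, against 30428, 29472 and 30899 in LPS-treated WT libraries, with a log2 fold change of -0.16 (SE 0.07, 95% confidence interval -0.32 to -0.002, adjusted p = 0.464). Untreated cKO libraries had 12171 to 13597 normalized counts of *Mcl1*, against 14019 to 15550 in untreated WT libraries, with a log2 fold change of -0.19 (SE 0.07, 95% confidence interval -0.35 to -0.04, adjusted p = 0.345). Neither passed the test.

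In untreated macrophages 9 of the 10 genes were tested and 0 were called in cKO against WT macrophages by limma, edgeR or DESeq2, where limma called 0.193% of all genes. 2 genes, *Mcl1* and *Bcl2l11*, had an unadjusted p under 0.05, and without the untreated cKO library 2 it was *Bcl2l11* alone. Without this library the log2 fold change of cKO over WT macrophages was -0.02 for *Bcl2*, -0.03 for *Bcl2l1* and 0.11 for *Pmaip1*, against 0.06, 0.004 and -0.01 with it, and every one of these intervals included 0. At an adjusted p under 0.05 alone it was also 0, where 0.538% of all genes passed. The libraries of 1 of the 9 genes did not overlap, against 16.4% of all genes. *Bcl2a1a* was below the filter on low values, a mean of 10 normalized counts, and had 8 reads over the cKO libraries and 17 over the WT libraries, which gave a ratio of 0.498 when scaled for what a read was worth (95% counting interval 0.186 to 1.22). The log2 fold changes of *Bcl2a1d* and *Bcl2a1b*, with few reads in these cells, were 0.39 (95% confidence interval -0.07 to 0.85) and 0.36 (-0.08 to 0.79).

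The intervals of the other genes show what size of difference these libraries leave possible. After LPS the log2 fold change of cKO over WT macrophages was 0.01 (95% confidence interval -0.23 to 0.24) for *Bcl2a1a*, 0.01 (-0.19 to 0.21) for *Bcl2a1b* and -0.01 (-0.20 to 0.17) for *Bcl2a1d*. It was 0.07 (-0.14 to 0.29) for *Mcl1*, 0.07 (-0.10 to 0.25) for *Bcl2l1*, -0.07 (-0.30 to 0.17) for *Bbc3* and 0.15 (-0.33 to 0.63) for *Pmaip1*. The widest interval was that of *Bcl2*, at -0.32 (-0.87 to 0.23), in which the WT library 3 with 69.6 normalized counts lay apart from 45.0 and 42.3 in the other WT libraries. In the interaction of genotype and LPS 0 of 10 genes passed an adjusted p under 0.05 with limma, edgeR or DESeq2, where 0.00787% of all genes passed with limma, and 0 had an unadjusted p under 0.05. The lowest unadjusted p was 0.0528, for *Mcl1*.

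**Figure D4:**
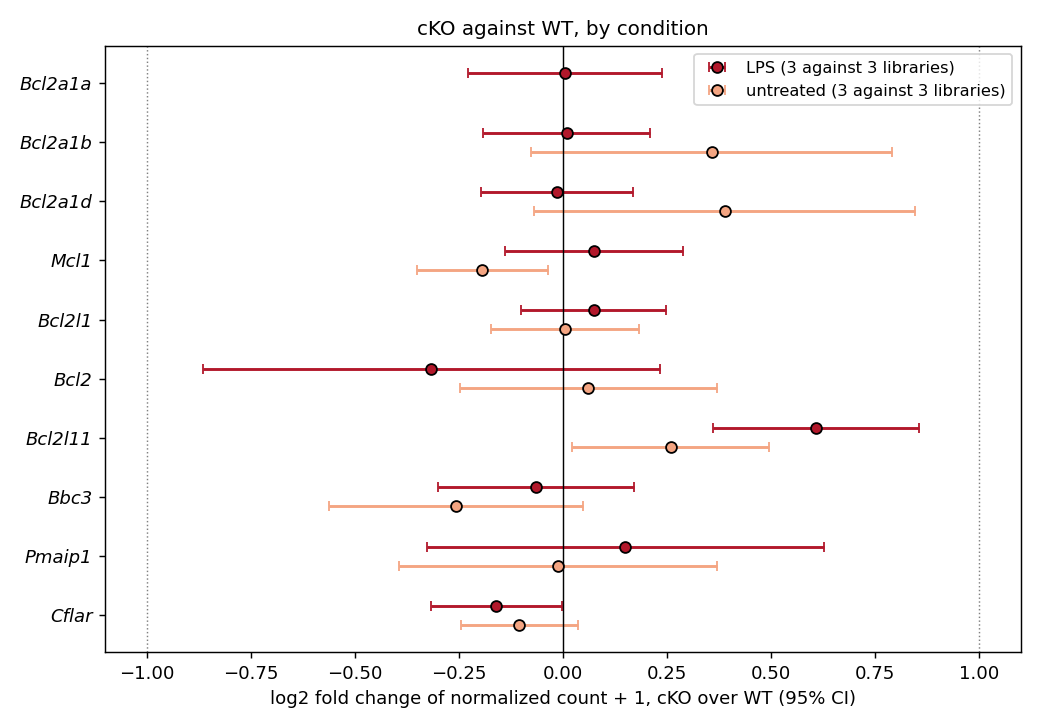
Log2 fold change of cKO over WT macrophages (x axis, on the normalized count plus 1, with 95% confidence intervals) for the 10 genes (y axis), with LPS (red) and untreated (light orange), 3 against 3 libraries each. *Bcl2a1a* was not tested in untreated cells. *Bcl2l11* with LPS, at 0.61, lies farthest from 0, and no gene reaches the fold threshold of 1 (dotted lines).

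Other genes of the pathway were read from 6 lists of BCL2 relatives, caspases, death receptor complexes and regulators. Of the other BCL2 family genes tested after LPS, 10 in each genotype, 1 was called higher and 2 lower in cKO macrophages and 0 higher and 2 lower in WT macrophages. These counts were near the share of all genes called, 17.3% higher and 16.6% lower in cKO and 17.1% higher and 16.9% lower in WT macrophages. The median log2 fold change of the list was -0.08 in cKO and -0.10 in WT macrophages. *Bmf*, a BH3-only gene, fell to 3.76 ± 3.11 normalized counts in LPS-treated cKO macrophages, against 224 ± 30.8 in untreated ones, and to 5.06 ± 2.80 in LPS-treated WT macrophages, against 270.0 ± 41.4 in untreated ones, with log2 fold changes of -5.75 and -5.57. *Bcl2l12* fell as well, by -1.38 in cKO and -1.05 in WT macrophages on the log2 scale. *Bid*, whose protein links caspase-8 to mitochondria, was called in cKO macrophages, with a log2 fold change of 1.05, and was at 0.81 in WT macrophages, and it lay between 1699 and 2197 normalized counts in LPS-treated and between 797 and 1068 in untreated cKO macrophages, and between 1302 and 1534 in LPS-treated and between 793 and 863 in untreated WT macrophages. The interaction of *Bid* had an adjusted p of 0.999. Of the effector genes, *Bax* was at 0.06 in cKO and -0.04 in WT macrophages and *Bak1* at 0.86 and 0.81 on the log2 scale, below the fold threshold.

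Among 12 genes of the apoptosome, the caspases and their inhibitors, 7 were called higher and 1 lower with LPS in each genotype, where 17.3% of all genes were called higher in cKO and 17.1% in WT macrophages. *Birc3* and *Birc2*, which encode the ubiquitin ligases cIAP2 and cIAP1, rose with log2 fold changes of 3.55 and 2.30 in cKO and 3.26 and 2.36 in WT macrophages. *Apaf1*, the scaffold of the apoptosome, rose by 1.89 in cKO and 2.11 in WT macrophages on the log2 scale. *Casp9*, the initiator caspase of the apoptosome, was the gene that fell, with -1.42 in cKO and -1.40 in WT macrophages.

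Of 10 genes of the death receptor complexes around c-FLIP, 5 were called higher and 0 lower in cKO macrophages and 5 higher and 1 lower in WT macrophages, where 17.3% and 17.1% of all genes were called higher. *Fas*, the receptor of FAS ligand, was at 1652 ± 241 normalized counts in LPS-treated and 53.5 ± 13.9 in untreated cKO macrophages, and at 1872.5 ± 236 in LPS-treated and 65.6 ± 14.3 in untreated WT macrophages. Its log2 fold change was 4.94 in cKO and 4.83 in WT macrophages. *Traf2* was called in both genotypes as well, the TNF receptor gene *Tnfrsf1b* rose by 2.36 in cKO and 2.20 in WT macrophages on the log2 scale, and *Casp8*, whose protein c-FLIP binds, by 1.70 and 1.71.

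Of the genes tested that regulate the transcription of BH3-only genes, 0 of 9 were called higher and 5 lower in cKO macrophages and 0 of 8 higher and 6 lower in WT macrophages, where 16.6% and 16.9% of all genes were called lower. *Trp53*, which encodes p53, passed the adjusted p in the other direction, with log2 fold changes of 0.59 in cKO (adjusted p = 3.78e-05) and 0.34 in WT macrophages (adjusted p = 0.0025), below the fold threshold, and *Atf4* was at 0.12 and -0.10 and did not pass. *Foxo3*, a factor known to drive *Bcl2l11*, was at 169.7 ± 14.6 normalized counts in LPS-treated and 2337 ± 137 in untreated cKO macrophages, and at 178 ± 64.7 in LPS-treated and 2180.0 ± 277 in untreated WT macrophages. Its log2 fold change was -3.78 in cKO and -3.67 in WT macrophages. *Myc* fell as well, with -2.11 and -2.95, as did *E2f1* with -1.42 and -1.38 and *Ddit3* (ENSMUSG00000025408) with -1.21 and -1.54. The list has 1 symbol with a second gene model, since 2 models bear the name *Ddit3*.

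Of 13 p53 targets tested, 3 were called higher and 6 lower in cKO macrophages and 2 higher and 6 lower in WT macrophages. Over all genes 17.3% were called higher and 16.6% lower in cKO and 17.1% higher and 16.9% lower in WT macrophages, so that the number of these targets called higher was near that share. *Sesn1* fell to 108 ± 16.5 normalized counts in LPS-treated cKO macrophages, against 4581 ± 344 in untreated ones, and to 90.1 ± 9.43 in LPS-treated WT macrophages, against 4074 ± 317 in untreated ones. *Gdf15* and *Trp53inp1* fell with log2 fold changes of -2.42 and -1.92 in cKO and -2.87 and -2.23 in WT macrophages, while *Cdkn1a*, which encodes the cell cycle inhibitor p21, rose with 2.83 and 2.68. Of 7 genes for ubiquitin ligases and deubiquitinases of MCL1 and BIM, 1 was called higher in cKO and 2 in WT macrophages and 0 lower in either, near the 17.3% and 17.1% of all genes called higher. *Marchf5*, a mitochondrial ubiquitin ligase gene, rose with a log2 fold change of 3.35 in cKO and 3.29 in WT macrophages, and *Trim17* was called in WT macrophages, with 1.62, and was at 0.77 in cKO macrophages (interaction, adjusted p = 0.999).

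**Figure D5:**
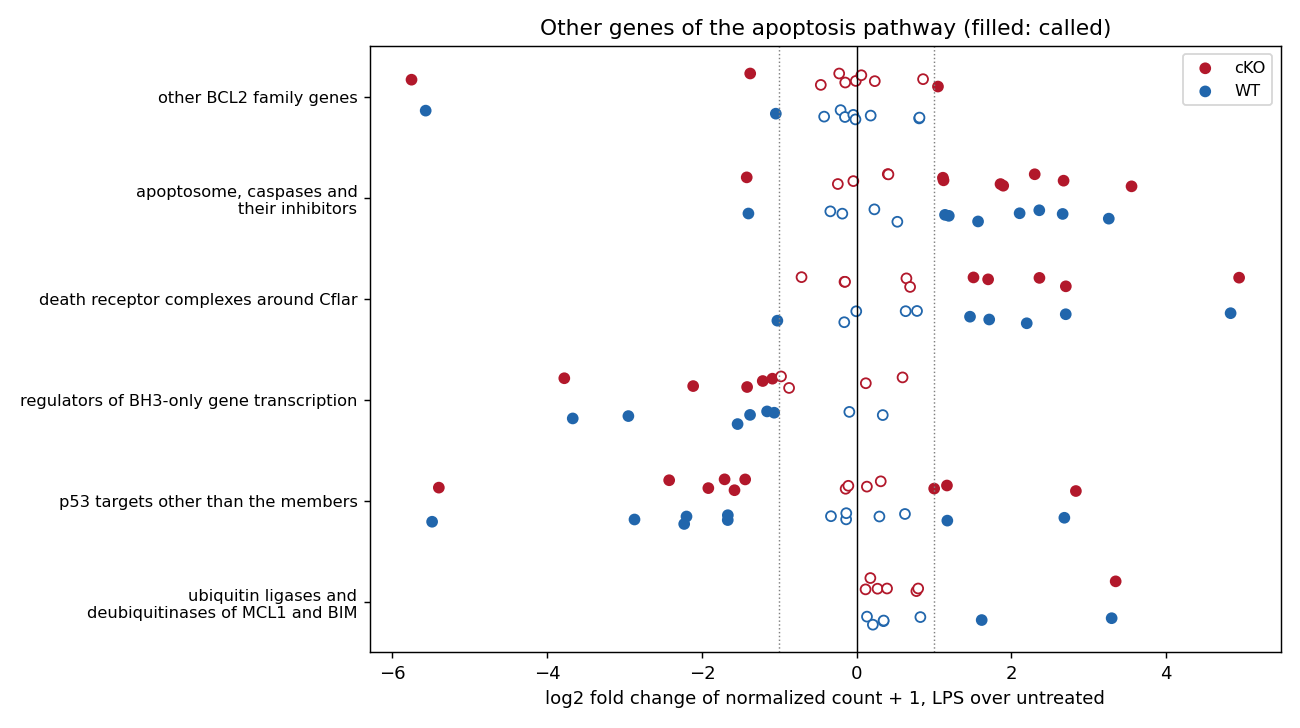
Log2 fold change of LPS over untreated (x axis, on the normalized count plus 1) for the tested genes of 6 pathway lists (y axis) in cKO (red) and WT macrophages (blue). Filled points were called, and dotted lines mark the fold threshold of 1. The lowest points are *Bmf* and *Sesn1*, at -5.75 to -5.40, and the highest is *Fas*, at 4.83 and 4.94.

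Between the genotypes 0 genes of these lists, with *Morrbid* counted among them, were called by limma, with LPS (61 gene models tested) or without (62 tested), and 0 passed an adjusted p under 0.05 alone. Over all genes 0.232% were called with LPS and 0.193% without, and 0.816% and 0.538% passed the adjusted p alone. The counts of the lists were near these shares. The nearest to the adjusted p threshold were *Myc* after LPS, with a log2 fold change of 0.85 in cKO over WT macrophages (adjusted p = 0.0861), and *Bnip3* in untreated cells, with -0.61 (adjusted p = 0.0524). *Myc* averaged 106 ± 11.5 normalized counts in LPS-treated cKO and 58.7 ± 10.6 in LPS-treated WT macrophages. *Bnip3*, whose protein acts in mitophagy, averaged 413 ± 31.8 in untreated cKO and 634 ± 85.7 in untreated WT macrophages.

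The genes whose profile was most like that of a member were sought among 12711 genes, by the root mean square difference over the 12 libraries of log2 values after subtraction of each gene's mean. For *Bcl2a1a*, the gene with the highest fold change in WT macrophages, the nearest were the interferon-inducible GTPase genes *Tgtp1* (0.286), *Gbp3* (0.372) and *Gbp2* (0.379). *Tgtp1* averaged 762 and 3.36 normalized counts in LPS-treated and untreated cKO macrophages, and 779 and 4.65 in LPS-treated and untreated WT macrophages. The other A1 genes had other nearest profiles, *Tnf* (0.282), *Traf1* (0.283) and *Spsb1* (0.333) for *Bcl2a1d*. For *Bcl2a1b* they were *Nectin2* (0.230), *Stat5a* (0.231) and *Foxp4* (0.238). For *Cflar* they were *Filip1l* (0.0908), *Nfkb2* (0.0981), which encodes an NF-κB subunit, and *Nectin2* (0.106). For *Bcl2*, the gene with the lowest fold change, they were *Ccdc125* (0.186), *Zfand4* (0.200) and *Peak1* (0.224).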

How the data were processed

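RNA of 12 BMDM libraries was sequenced by the authors with paired-end reads of 150 bases. According to the submitters' notes they used bcl2fastq (2.17), Trimmomatic (0.39), STAR (2.7.4a) on GRCm38, featureCounts of Subread (2.0.1) and DESeq2 (1.32.0) in R (4.1.2). How reads that match several genes were counted is not given in the sources used here. The signal values deposited by the authors are counts per gene divided by a size factor per library. Of these values, 100% came out whole after division by the value of 1 read (tolerance 1e-06 reads), and the recovered reads gave depth and the tests on counts. Replicates are labelled biological.

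Log2(normalized count + 1) was fitted with limma (3.58.1, R 4.3.3, trended variance) to the 2 groups compared, for genes with a mean of at least 10, over the whole table. Genes were called where the adjusted p (Benjamini-Hochberg) was under 0.05 and the log2 fold change was 1 or more in either direction, and in the interaction, over 12 libraries, by the adjusted p alone. Numbers are read from the normalized counts, and positions and exon lengths from GENCODE for GRCm38. The script was tested on simulated data. The genes, the 6 pathway lists, the lone noncoding neighbour and the 6 marker lists were chosen with earlier results of these data known. Named were the 10 genes, *Rasgef1b*, *Bcl2a1c*, *Morrbid*, up to 4 called genes of a list with the largest change, and the 3 nearest profiles for 3 genes, except an item that is not reported here. *Bid*, *Casp9*, *Bnip3*, *Myc* between genotypes, *Bax*, *Bak1* and the nearest profiles of *Bcl2a1b* and *Bcl2a1d* were named after their values were seen, where the rule did not name them.

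Alternatives were pseudocounts of 0.5 and 5, no filter or a mean of 50, 2 other scalings, edgeR (4.0.16) and DESeq2 (1.42.0) on recovered reads, a variance without a trend, all libraries in one fit, a replicate block, summed A1 genes, no fold threshold and leaving out each library. Same-numbered LPS-treated and untreated libraries deviated together (r = 0.29, 0.28 and 0.17 in cKO and 0.33, 0.19 and 0.24 in WT), so the numbers may pair them. Between genotypes they did not (r = -0.20 to 0.24). The study compared them unpaired.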

Additional observations from a re-analysis of the deposited data

How the results depend on the processing

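The 6 calls with LPS in each genotype kept their direction and their side of the thresholds in every alternative that was run, and so did the absence of calls between the genotypes, except where the fold threshold was dropped. Then 9 genes instead of 6 passed in cKO and 10 instead of 6 in WT macrophages with LPS, and 1 (*Bcl2l11*) instead of 0 in cKO against WT macrophages after LPS. Over 895 values of single genes under the alternatives, 861 kept direction and call, 34 changed sign without a call, and 0 changed a call. A changed sign could still pass the adjusted p alone. With LPS in WT macrophages *Mcl1* passed in all 11 other settings of the fit, at log2 fold changes from -0.40 to 0.62. *Bcl2l11* and *Bbc3* passed in 10 of the 11 each, where the log2 fold changes over all 11 ran from -0.43 to 0.60 and from -0.38 to 0.65.

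With the LPS comparisons scaled to the library total, *Mcl1* was at -0.10, *Bcl2l11* at -0.039 and *Bbc3* at -0.15 in cKO and at -0.40, -0.43 and -0.38 in WT macrophages on the log2 scale. With upper quartile scaling *Bcl2l1* was at 0.098 in cKO and 0.044 in WT macrophages. Other sign changes lay near 0. For cKO over WT without LPS, library total scaling gave *Bcl2l1* -0.0055. After LPS, *Bcl2a1a* was at -0.0018 with upper quartile scaling, -0.0010 with DESeq2 and -0.0046 with the A1 genes summed (as then was *Bcl2a1b*), and *Bcl2a1d* at 0.015 with the library total. The interaction of *Bcl2a1a* was -0.35 for the A1 sum.

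Leaving out 1 library gave, for cKO over WT without LPS, *Bcl2* -0.087 to 0.15, *Bcl2l1* -0.080 to 0.054 and *Pmaip1* -0.16 to 0.14. After LPS it gave *Bcl2l1* -0.0057 to 0.13, *Bcl2a1a* -0.0859 to 0.10, *Bcl2a1b* -0.0855 to 0.081, *Bcl2a1d* -0.074 to 0.072, *Mcl1* -0.0043 to 0.16, *Bbc3* -0.17 to 0.0125 and *Pmaip1* -0.0267 to 0.28. For the interaction it gave *Bcl2l1* -0.0099 to 0.15 and *Pmaip1* -0.0155 to 0.31.

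With the replicate block, which in the LPS comparisons pairs LPS-treated with untreated libraries, 10 genes passed an adjusted p under 0.05 alone in cKO macrophages instead of 9 (*Bcl2l1*, adjusted p = 0.0111), and no other side of a threshold changed. In the comparisons of cKO with WT macrophages the block joins same-numbered libraries that are not pairs. Depth limits *Bcl2a1a* and *Bcl2a1c* in untreated cells, with 1 to 17 reads a group. Designs of 3 against 3 libraries cannot go below p = 0.1 in an exact test. The cause of these changes was not tested.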
